A study of Mus musculus with 30 samples.

Results

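Cox7a1, Cox8b, Chchd10, Cpt1b, Elovl3 and Slc36a2 are genes of oxidative metabolism that are known for high RNA levels in brown fat, and several of them also in muscle and heart. These 6 of the 14763 named genes on the arrays were listed with their values in all 10 groups already known, so their levels and differences are given as a description, without a test. Cox8b and Cox7a1 showed the widest range. Relative to the solvent control, Cox8b was 30.3-fold higher with ROSI and Cox7a1 was 29.9-fold higher with the hormonal cocktail MDI, while with DEHP the gaps from the control were 1.12-fold and 1.16-fold. These sizes depended on the scaling. Quantile normalization between arrays lowered the log2 difference of Cox8b with ROSI from 4.92 to 3.54 and that of Cox7a1 with MDI from 4.90 to 3.13. All 6 genes were higher with MDI, ROSI and TBT than in the control on every array. The 6 genes did not share an order of agents: Cox7a1 was highest with MDI, the other 5 had their highest mean with ROSI (Slc36a2 with overlap with MDI), and Chchd10 was higher with TBT than with MDI.

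Brown fat burns fatty acids in mitochondria and releases the energy as heat, and the respiratory chain that carries the electrons ends at cytochrome c oxidase. Some of the small subunits of that enzyme exist in a form made in most tissues and in a form made mainly in heart, muscle and brown fat. Fatty acids enter the mitochondrion through the carnitine shuttle, whose first enzyme also has a muscle type form. Long saturated and monounsaturated fatty acids are built by elongases, one of which is strongly expressed in brown fat in the cold. White and brown fat cells both arise from preadipocytes under PPAR gamma, the nuclear receptor that rosiglitazone activates.

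The cells were 3T3-L1, a line of mouse preadipocytes that can convert to fat cells in a dish. Their RNA was measured on 30 arrays with 2 colours, 3 for each of 10 groups. Cells of every group were taken past confluence and kept in medium with foetal bovine serum until day 10, and the control received DMSO at 0.1%. The cocktail MDI was given for 48 h and held 10 µg/mL insulin, 0.25 µM dexamethasone and 0.5 mM isobutyl methylxanthine, and insulin stayed on for 8 days more. The agents BP, BBP, BPA, DEHP, EB, PP, ROSI and TBT were present for 10 days, at doses that the labels used here do not give. ROSI commonly stands for rosiglitazone and TBT for tributyltin. BPA commonly stands for bisphenol A, DEHP for di(2-ethylhexyl) phthalate and BBP for benzyl butyl phthalate. The labels write out none of these names, and BP, EB and PP are kept as codes. All samples come from 1 cell line. The labels call the 3 samples of a group biological replicates without saying whether they were separate cultures, so any p-value reflects the spread among these samples, which may be technical. Sample RNA carried Cy3 and a common reference, pooled from control and exposed samples, carried Cy5.

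A level below is log2 of sample over reference, which does not allow one gene's level to be set against another gene's. A difference is the gap between 2 group means on that scale, with the standard error (SE) of a linear model over all 30 arrays. The number of arrays limits the precision. Array medians lay between -0.00336 and 0.0132, and replicates correlated at 0.542 to 0.892 over 19231 entries, in which probes of a gene were averaged. The mean profiles of DMSO and MDI correlated at -0.512. The deposited ratio is reference over sample, and its sign was turned on all arrays alike, a direction taken from the dyes that the labels name. Genes of lists were called changed at an adjusted p under 0.05 by limma, with Benjamini-Hochberg adjustment over 19231 entries.

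Markers of other cells that could carry a brown or muscle pattern were examined on the same arrays. Of 8 markers of brown preadipocytes 5 were measured, and their median level lay between -0.18 and 0.07 on all arrays. Ebf3 fell by 0.41 with MDI, 0.23 with ROSI and 0.42 with TBT, and Zic1 and Lhx8 differed from DMSO by -0.12 to 0.09 with these agents. Of 19 skeletal muscle markers 9 were measured, with 3 higher and 2 lower with MDI (20.1% and 18.3% of all entries were called higher and lower), 1 and 1 with ROSI (16.5% and 14.3%), and 2 and 1 with TBT (14.1% and 10.6%), where quantile normalization gave 1 and 1. With MDI quantile normalization gave 2 higher and 1 lower. The median level of the 9 markers lay between -0.06 and 0.07, and the muscle regulators Myod1 and Myog differed by -0.04 to 0.02. A median near 0 does not mean that no marker moved, since 5 of the 9 were called with MDI. Of 12 heart muscle markers 5 were measured, with a median level between -0.12 and 0.09, and limma called 1 lower with ROSI, 2 lower with TBT and 0 with MDI, where 1 had an unadjusted p under 0.05. A ratio near 0 does not show whether a probe was above background, since intensities were not used here.

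Promoter sequence was at hand for only 3 of the 6 genes, from RefSeq on build GRCm38.p6, and is shown for these 3 for that reason. All 6 genes were higher with ROSI and TBT than with DMSO. Each line gives the 250 bases before the gene's start, 5′ to 3′ on the strand of the gene. The Cox7a1 window is chr7:30183921-30184170 on the plus strand, the Cox8b window is chr7:140900447-140900696 on the minus strand, and the Chchd10 window is chr10:75932880-75933129 on the plus strand. Capitals mark TGACCT, the reverse complement of AGGTCA, the core hexamer bound by many nuclear receptors.
Cox7a1: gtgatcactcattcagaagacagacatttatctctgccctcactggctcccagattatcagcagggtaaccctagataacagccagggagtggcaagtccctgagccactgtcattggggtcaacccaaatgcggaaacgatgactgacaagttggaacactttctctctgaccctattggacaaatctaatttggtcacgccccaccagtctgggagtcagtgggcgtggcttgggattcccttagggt
Cox8b: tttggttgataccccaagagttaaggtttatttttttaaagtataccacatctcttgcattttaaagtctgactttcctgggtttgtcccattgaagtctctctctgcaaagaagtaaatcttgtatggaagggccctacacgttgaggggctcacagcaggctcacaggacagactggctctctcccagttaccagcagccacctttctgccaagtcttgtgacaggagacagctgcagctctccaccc
Chchd10: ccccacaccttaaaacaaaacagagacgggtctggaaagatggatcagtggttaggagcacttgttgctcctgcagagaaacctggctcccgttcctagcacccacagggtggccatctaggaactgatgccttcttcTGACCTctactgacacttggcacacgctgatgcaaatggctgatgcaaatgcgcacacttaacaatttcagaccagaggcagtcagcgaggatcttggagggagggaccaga

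The hexamer occurs only in the Chchd10 window of these 3, at 112 to 107 bases before the start, and 14.0% of all 32851 windows of that length hold it on either strand. The other 6 motifs given here, matched on both strands, were not in the 3 windows. These were the direct repeat bound by PPAR with RXR, AGGTCA followed by any 1 base and AGGTCA again (in 0.0335% of all windows), the element TCAAGGTCA of oestrogen-related receptors (0.387%), TATAAA (12.4%), the cyclic AMP element TGACGTCA (1.55%), the ETS element CCGGAAG (6.91%) and the E-box CACGTG (6.02%). The first of these motifs, and the element of oestrogen-related receptors, contain the hexamer. A match or its absence describes the letters in the window and says nothing of a factor's binding. Cpt1b, Elovl3 and Slc36a2 are named without sequence.

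Cox7a1 encodes the heart and muscle form of a small subunit of cytochrome c oxidase and Cox8b the heart and muscle form of another. The levels of Cox7a1 on the 3 DMSO arrays were -3.02, -3.06 and -2.61. With MDI they were 1.95, 1.96 and 2.11, with ROSI 0.87, 0.84 and 0.99, and with TBT 1.05, 0.87 and 0.63. MDI stood clear above all other groups, and the arrays of ROSI and TBT overlapped each other. The differences from DMSO were 4.90 ± 0.10 (SE) for MDI, 3.80 ± 0.10 for ROSI and 3.74 ± 0.10 for TBT, or 29.9-fold, 13.9-fold and 13.4-fold. Among the 14763 named genes, Cox7a1 had the highest difference of MDI from DMSO. PP, BP, BBP and BPA formed a middle group with means of -1.38, -1.47, -1.62 and -1.80, in which PP and BP overlapped, as did BP and BBP. EB (mean -2.56) and DEHP (-2.68) overlapped each other, and DEHP overlapped DMSO (-2.90).

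Cox8b on the DMSO arrays was at -3.31, -3.43 and -3.07, and on the ROSI arrays at 1.39, 1.79 and 1.77. MDI gave 1.21, 1.36 and 1.27, just below ROSI without overlap, and TBT gave 0.65, 0.73 and 0.25. The differences from DMSO were 4.92 ± 0.12 for ROSI, 4.55 ± 0.12 for MDI and 3.81 ± 0.12 for TBT. BBP had the next highest mean (-0.66), overlapping BP (-0.80), followed by PP (-0.97) and, well below, BPA (-1.82). Cox8b lay 6.10-fold above DMSO with BBP, where Cox7a1 lay 2.42-fold above it, and after quantile normalization the log2 differences were 1.36 and -0.37. EB (-2.98), DEHP (-3.11) and DMSO (-3.27) formed an overlapping chain at the bottom.

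**Figure D1:**
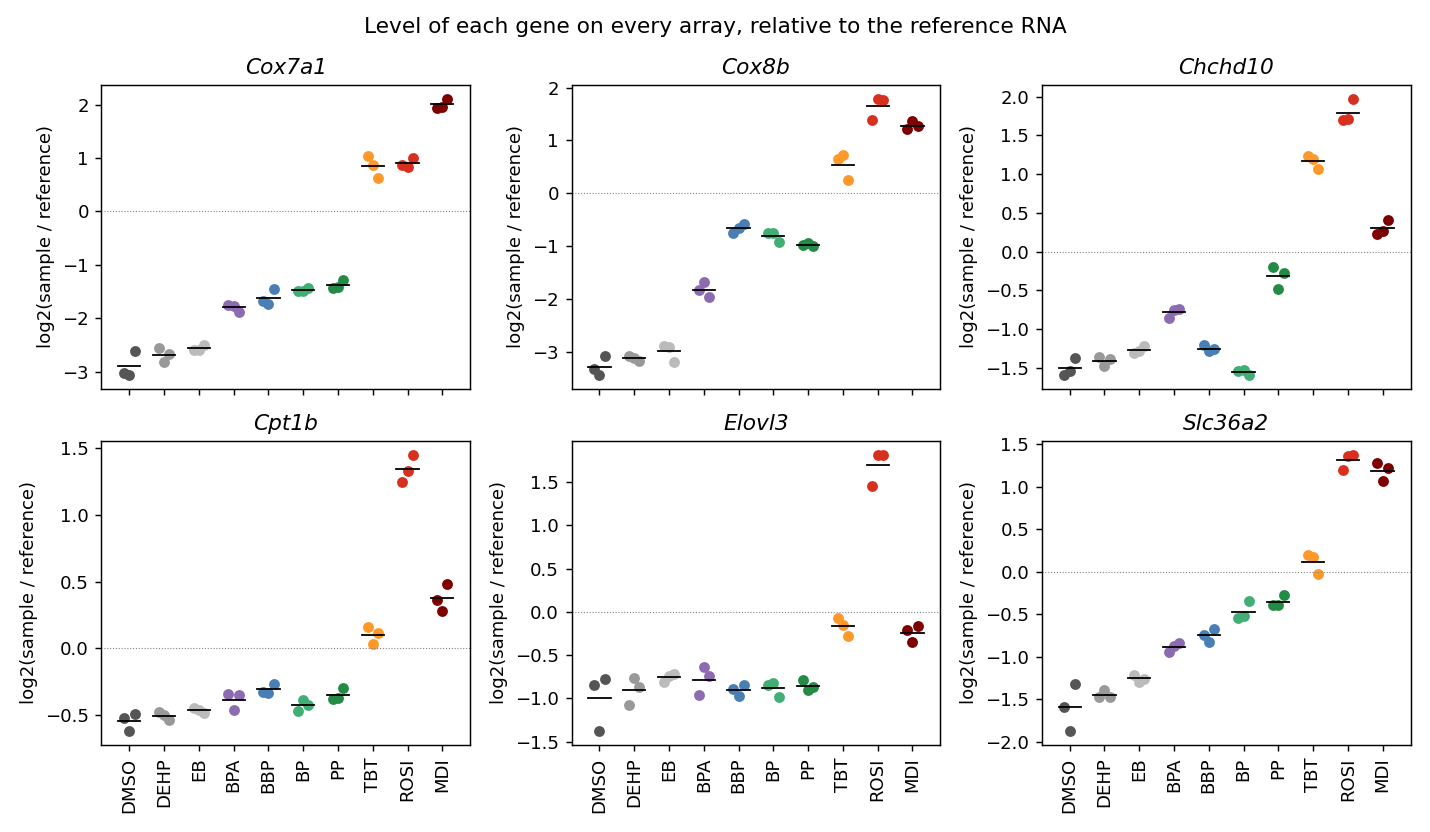
Level of each of the 6 genes (y axis, log2 of sample over reference) on each of the 30 arrays, by group (x axis); points are arrays and lines are group means of 3 arrays. Cox7a1 is highest with MDI, Elovl3 stands far above all other groups with ROSI alone, and Chchd10 with BP overlaps DMSO.

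Chchd10 encodes a small protein of the mitochondrial intermembrane space that is abundant in heart and muscle. Its order of agents differed from that of the oxidase subunits. The ROSI arrays were at 1.70, 1.71 and 1.97, the TBT arrays at 1.23, 1.19 and 1.07, and the MDI arrays at 0.22, 0.27 and 0.41, with DMSO at -1.59, -1.54 and -1.37. These 4 groups did not overlap. The differences from DMSO were 3.29 ± 0.07 for ROSI, 2.66 ± 0.07 for TBT and 1.80 ± 0.07 for MDI. PP came next, with -0.19, -0.48 and -0.28, and then BPA, with -0.86, -0.76 and -0.74. BP, which lay near PP for Cox7a1 and Slc36a2, had the lowest mean of all groups for Chchd10 (-1.54, -1.53 and -1.59 on its arrays) and overlapped DMSO, with a difference of -0.05 that became -1.17 after quantile normalization. BBP overlapped EB, EB stood just above DEHP, and DEHP overlapped DMSO.

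Cpt1b encodes the muscle type form of carnitine palmitoyltransferase at the outer mitochondrial membrane, the step that commits long fatty acids to oxidation. Its level, the mean of 2 probes, was -0.52, -0.62 and -0.49 with DMSO and 1.24, 1.33 and 1.45 with ROSI. MDI gave 0.36, 0.28 and 0.48, and TBT 0.16, 0.03 and 0.11. ROSI, MDI, TBT and the rest were separate from each other. The differences from DMSO were 1.88 ± 0.05 for ROSI, 0.92 ± 0.05 for MDI and 0.64 ± 0.05 for TBT. The means of the other 6 agents lay between -0.31 (BBP) and -0.50 (DEHP) and overlapped from one to the next. The probes differed in size: the difference of ROSI from DMSO was 1.60 on one and 2.17 on the other, that of MDI 0.60 and 1.24, and that of TBT 0.43 and 0.86. For BP, EB and DEHP the first probe was at -0.01, -0.04 and -0.01 and the second at 0.25, 0.20 and 0.09, so the sign of these small differences depended on the probe.

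Elovl3 encodes an elongase of very long chain fatty acids that is induced in mouse brown fat in the cold. ROSI gave levels of 1.46, 1.81 and 1.82. TBT gave -0.07, -0.15 and -0.28 and overlapped MDI, with -0.21, -0.34 and -0.16. DMSO was at -0.85, -1.38 and -0.77, and its second array lay apart from the other 2. The difference from DMSO was 2.69 ± 0.12 for ROSI, against 0.83 ± 0.12 for TBT and 0.76 ± 0.12 for MDI. All other agents had means between -0.76 (EB) and -0.90 (BBP) and overlapped DMSO. After quantile normalization the differences were -0.78 with BP, -0.55 with BBP, -0.55 with PP and -0.19 with BPA. The SD of the 3 DMSO arrays was 0.33, beside 0.28 for Slc36a2 and 0.25 for Cox7a1. So the pooled SE is likely too small for Elovl3, Slc36a2 and Cox7a1 in comparisons with DMSO. Without DMSO replicate 2 the Elovl3 differences of BBP, DEHP, BP and PP, between 0.10 and 0.14 with it, were -0.09, -0.09, -0.08 and -0.05. Those of BPA and EB went from 0.22 and 0.24 to 0.03 and 0.05.

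Slc36a2 encodes a proton-coupled transporter of small amino acids that is used as a surface marker of brown and beige fat cells. Its levels with ROSI (1.20, 1.37 and 1.38) overlapped those with MDI (1.28, 1.07 and 1.23), and TBT lay lower (0.20, 0.17 and -0.03). DMSO was at -1.58, -1.87 and -1.32. The differences from DMSO were 2.91 ± 0.09 for ROSI, 2.78 ± 0.09 for MDI and 1.71 ± 0.09 for TBT. The other agents formed a staircase with means of -0.35 for PP, -0.47 for BP, -0.75 for BBP, -0.89 for BPA, -1.25 for EB and -1.44 for DEHP. In it only PP and BP overlapped each other among neighbours, and DEHP overlapped DMSO.

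Set against DMSO, all 6 genes lay higher without overlap of the arrays with MDI (23.9% of all entries did so), with ROSI (21.0%) and with TBT (19.8%). Of the 6, 5 did so with BPA (19.8%), BBP (16.9%) and PP (19.2%), the exception being Elovl3. With BP 4 did (19.3%), Elovl3 and Chchd10 being the exceptions, and with EB 4 did (7.38%), Elovl3 and Cox8b being the exceptions. With DEHP the number was 0 (8.34% of all entries), and the differences of the 6 genes were between 0.04 and 0.22. They moved with single arrays: without DMSO replicate 2 Slc36a2 went from 0.15 to 0.01 and without DMSO replicate 3 Cox7a1 went from 0.22 to 0.36. The 6 genes were chosen from these contrasts, so nothing is read from their counts. All 9 comparisons share the 3 DMSO arrays.

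Quantile normalization between arrays left all 6 genes above DMSO with MDI, ROSI and TBT, by 0.44 to 3.54. All of these differences were smaller than as deposited, and that of Cox7a1 with MDI went from 4.90 to 3.13. For the weaker agents it turned the sign of 10 differences whose arrays had not overlapped, among them Cox7a1 with BPA, BBP, BP, EB and PP and Chchd10 with BBP. Cox8b stayed above DMSO with BBP (1.36), BP (0.92), PP (0.85) and BPA (0.28). The 0.001 quantile of an array's log ratios, averaged over the arrays of a group, was -2.44 for DMSO, -2.27 for DEHP and -2.16 for EB. It was -1.34 to -0.88 in the other groups, and quantile normalization forces these tails to be equal.

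**Figure D2:**
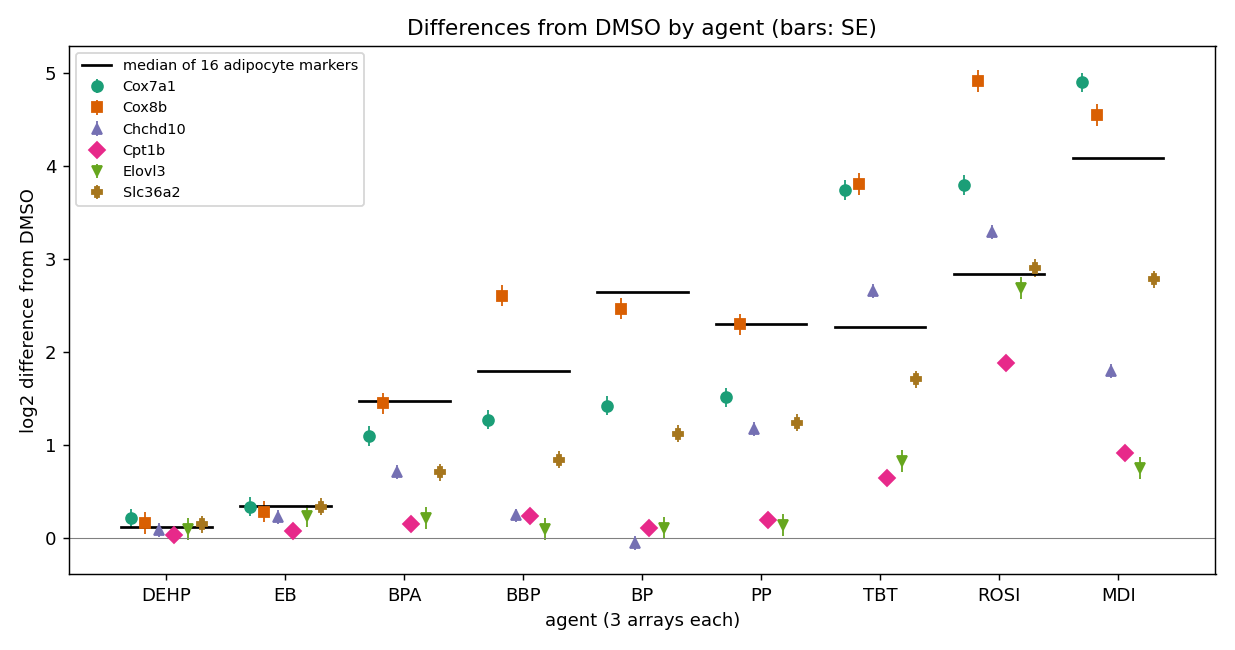
Log2 difference from DMSO (y axis) of the 6 genes for each of 9 agents (x axis, 3 arrays each); bars are SE, and black lines are the median difference of 16 markers of mature fat cells. With BP the marker median is 2.65 while Chchd10 is at -0.05 (1.60 and -1.17 after quantile normalization). With TBT the marker median is 2.28 while Cox7a1 is at 3.74 and Cox8b at 3.81 (1.32, 2.61 and 2.76 after quantile normalization).

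The markers of mature fat cells moved with these genes. Their median difference from DMSO was 4.09 with MDI, 2.84 with ROSI, 2.65 with BP, 2.30 with PP, 2.28 with TBT, 1.80 with BBP, 1.48 with BPA, 0.34 with EB and 0.12 with DEHP. In these cultures, more fat cells and more RNA of a gene per cell cannot be told apart. The part of fat conversion in the levels of the 6 genes was not tested. Of 17 listed markers 16 were measured. With MDI all 16 rose (20.1% of all entries were called higher). With ROSI (16.5%), TBT (14.1%), BPA (12.3%), BBP (6.90%), BP (12.9%) and PP (12.0%) 15 rose. With EB 5 rose (0.432%). After quantile normalization 11 rose with BPA, 13 with BBP and 0 with EB (2 at an unadjusted p under 0.05 by limma), and the medians were 0.44, 0.61 and 0.017. The medians with the stronger agents also fell, to 2.37 with MDI, 1.77 with ROSI, 1.60 with BP, 1.28 with PP and 1.32 with TBT. With DEHP 0 of 16 passed limma's test (0.0104%), and 2 had an unadjusted p under 0.05, as had 2148 of all 19231 entries. The median level of the markers lay between -2.83 and -2.50 on the DMSO arrays and between 1.24 and 1.33 on the MDI arrays. With ROSI and TBT the marker that did not pass the test was leptin (Lep), at 0.11 and 0.03.

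TBT, PP and BP had marker medians of 2.28, 2.30 and 2.65, and their levels of the 6 genes were set side by side after the values had been seen. TBT lay above PP in all 6 genes without overlap (13.9% of all entries did so), and the markers' own gaps between TBT and PP had a median of 0.08. The gap was 2.23 ± 0.10 for Cox7a1, 1.51 ± 0.12 for Cox8b, 1.48 ± 0.07 for Chchd10, 0.69 ± 0.12 for Elovl3, 0.47 ± 0.09 for Slc36a2 and 0.45 ± 0.05 for Cpt1b. TBT also lay above BP in all 6 without overlap (13.9%), by 2.72 ± 0.07 for Chchd10 and 2.32 ± 0.10 for Cox7a1, and the markers' own gaps had a median of -0.12. All 12 gaps were larger after quantile normalization. Between PP and BP, Chchd10 was higher by 1.23 ± 0.07 with PP, and the other 5 genes differed by -0.17 to 0.12. BPA and BBP, with marker medians of 1.48 and 1.80, were apart in opposite directions: BPA minus BBP was -1.16 ± 0.12 for Cox8b and 0.47 ± 0.07 for Chchd10. Cox7a1 (-0.18), Slc36a2 (-0.14) and Cpt1b (-0.08) were also lower with BPA without overlap, and Elovl3 overlapped (0.12). Without overlap, 14.7% of all entries were higher and 14.7% lower with BPA than with BBP. After quantile normalization Cox8b stayed lower (-1.08) and Chchd10 higher (0.88) with BPA. Cox7a1 (0.22) and Slc36a2 (0.02) turned sign, Cpt1b was at -0.04 and Elovl3 at 0.36.

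ROSI was set against MDI, the hormonal cocktail. Elovl3 was higher with ROSI by 1.94 ± 0.12 (3.83-fold), Chchd10 by 1.49 ± 0.07 (2.81-fold), Cpt1b by 0.96 ± 0.05 (1.95-fold) and Cox8b by 0.37 ± 0.12. Cox7a1 was lower with ROSI, at -1.10 ± 0.10, or 2.15-fold, and Slc36a2 overlapped, with a difference of 0.12 ± 0.09. After quantile normalization Cox8b was at 0.67, Cox7a1 at -0.69 and Slc36a2 at 0.46. So 5 of the 6 genes did not overlap between ROSI and MDI, against 34.0% of all entries. Elovl3 ranked 3 and Chchd10 ranked 7 of 14763 named genes by this difference. The differences of the fat cell markers had a median of -0.54, with 10 of 16 lower and 1 higher, or 8 and 2 after quantile normalization (10.8% of all entries were called lower and 9.47% higher).

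TBT lay below ROSI in 5 of the 6 genes without overlap, against 17.0% of all entries. The difference was -1.86 ± 0.12 for Elovl3, the lowest of all 14763 named genes, -1.24 ± 0.05 for Cpt1b, -1.20 ± 0.09 for Slc36a2, -1.11 ± 0.12 for Cox8b and -0.63 ± 0.07 for Chchd10 (-0.38 after quantile normalization). Cox7a1 overlapped, with a difference of -0.05 ± 0.10 (0.17 after quantile normalization), and the differences of the fat cell markers had a median of -0.55. Against MDI, TBT had lower levels of Cox7a1 (-1.16 ± 0.10), Slc36a2 (-1.07 ± 0.09), Cox8b (-0.74 ± 0.12) and Cpt1b (-0.27 ± 0.05), and a higher level of Chchd10 (0.86 ± 0.07). Elovl3 overlapped, at 0.07 ± 0.12. After quantile normalization the gaps were -0.52 for Cox7a1, -0.49 for Slc36a2, -0.11 for Cox8b and -0.13 for Cpt1b. As deposited, 5 of the 6 genes did not overlap between TBT and MDI, where 40.1% of all entries did not.

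**Figure D3:**
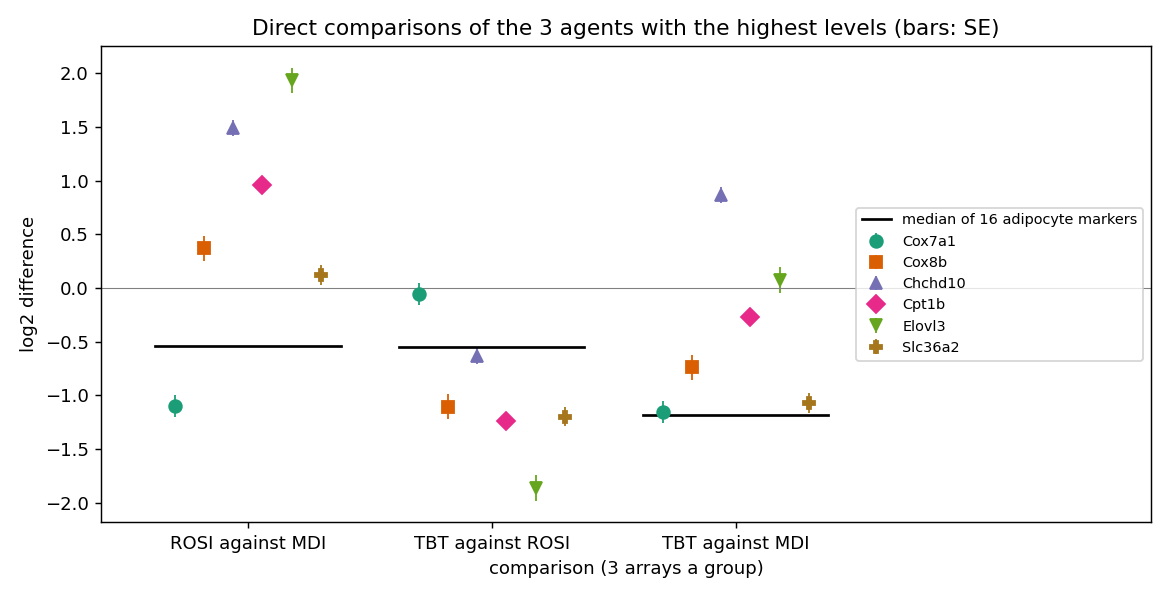
Log2 difference (y axis) of the 6 genes in 3 direct comparisons (x axis); bars are SE and black lines the median of 16 fat cell markers. Elovl3 is at 1.94 for ROSI against MDI and at -1.86 for TBT against ROSI, while Chchd10 is above 0 in both comparisons with MDI.

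The 6 genes have close relatives, which were listed to see whether whole families moved. Of 16 paralogues listed, 10 were measured. With MDI 7 rose and 2 fell (20.1% and 18.3% of all entries), with ROSI 5 rose and 1 fell (16.5% and 14.3%), and with TBT 7 rose (14.1%). Their median differences were 0.30, 0.14 and 0.45, beside medians over all entries of 0.0024, 0.0037 and -5.1e-05. Cox7a2, the form of the Cox7a1 subunit made in most tissues, rose by 1.25 ± 0.06 with MDI, 1.17 ± 0.06 with ROSI and 0.75 ± 0.06 with TBT. Cox8a, the common counterpart of Cox8b, rose by 1.08, 0.95 and 0.64. Chchd2, the nearest relative of Chchd10, rose by 1.30, 1.17 and 0.54, the last of which was -0.00142 after quantile normalization. The adjusted p of each of these 9 increases was under 0.05 by limma.

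The other relatives had smaller differences. Cpt1a, the form of the carnitine enzyme made in liver and most tissues, fell by 0.27 with MDI, differed by 0.02 with ROSI and rose by 0.48 with TBT, while Cpt1c, a form of brain, fell by 0.17 with MDI and by 0.26 with ROSI. Elovl6, the elongase of palmitate, rose by 0.54 with both MDI and TBT and was at 0.08 with ROSI, the agent with the highest Elovl3. Elovl5 rose by 0.31 with MDI and 0.42 with TBT, and Elovl1 rose by 0.27 with ROSI and 0.13 with TBT. Slc36a1, the lysosomal relative of Slc36a2, rose by 0.13 with MDI and 0.14 with ROSI. Cox7a2l, a factor of respiratory supercomplexes, rose by 0.30 with MDI and was at 0.14 with ROSI and 0.0034 with TBT. The difference between each gene and its paralogue was not tested.

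**Figure D4:**
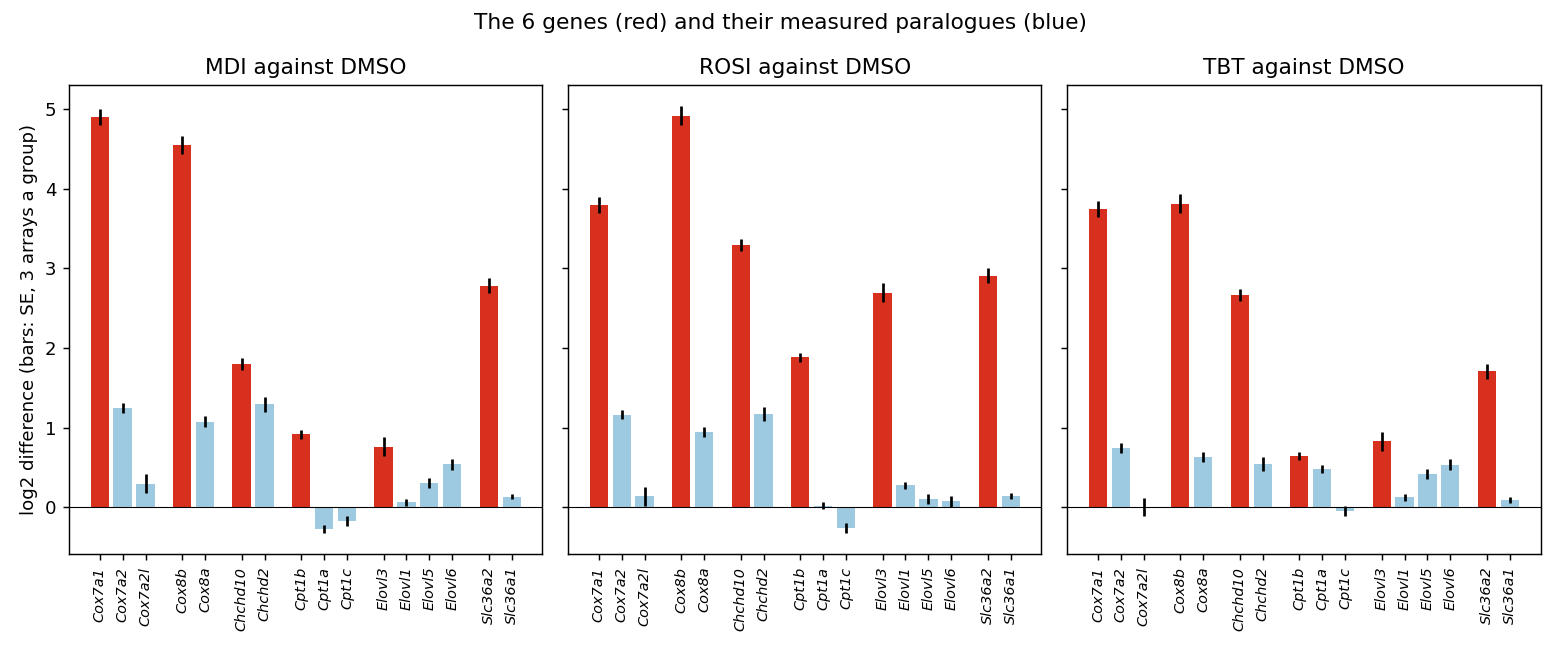
Log2 difference from DMSO (y axis) of the 6 genes (red) and their 10 measured paralogues (blue) with MDI, ROSI and TBT; bars start at 0, error bars are SE, 3 arrays a group. Cox7a1 is at 4.90 with MDI beside 1.25 for Cox7a2, and Elovl3 at 2.69 with ROSI beside 0.08 for Elovl6.

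The pathways around the 6 genes moved in part. Among all entries 20.1% were called higher with MDI, 16.5% with ROSI and 14.1% with TBT. Of 12 measured common cytochrome c oxidase subunits, 11 rose with MDI and 10 each with ROSI and TBT, with median differences of 1.18, 0.95 and 0.63. Cox7b rose by 1.31, 1.19 and 0.83, and Cox5a by 1.20, 1.24 and 0.62. Cox4i2, a form of lung, was at -0.03, 0.02 and 0.03. Of 18 assembly factors of the enzyme 13, 15 and 10 rose, led by Cox19 (1.38, 1.45 and 0.84). Of 16 proteins of inner membrane organisation and of the twin CX9C family, to which CHCHD10 belongs, 15, 15 and 11 rose, among them Apoo, a subunit of the cristae complex, by 1.45, 1.33 and 0.95.

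Of 12 genes of the carnitine shuttle and fatty acid activation, 8 rose and 3 fell with MDI (8 and 1 after quantile normalization), 9 rose and 1 fell with ROSI, and 11 rose with TBT. Among all entries limma called 20.1% higher and 18.3% lower with MDI, 16.5% and 14.3% with ROSI, and 14.1% and 10.6% with TBT. Cpt2, the partner enzyme of CPT1 at the inner membrane, rose by 1.16, 1.12 and 0.97 with the 3 agents. Mlycd, which removes the inhibitor of CPT1, malonyl-CoA, rose by 1.17, 1.91 and 0.97, and was higher with ROSI than with MDI by 0.74. Acacb, which makes malonyl-CoA at the mitochondrion, rose by 1.00, 1.36 and 0.72. Of 15 genes of elongation and desaturation 10, 10 and 11 rose and 3, 2 and 3 fell. Hsd17b12, the reductase of the elongation cycle, rose by 1.80 with ROSI and 0.99 with TBT, and rose with MDI as well. Of 13 amino acid transporters other than Slc36a2, 4 rose and 5 fell with MDI, 4 rose and 3 fell with ROSI, and 5 rose and 1 fell with TBT (4 and 2 after quantile normalization). Slc1a5, the glutamine carrier, rose by 0.89, 0.97 and 0.97.

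Of 22 other thermogenic and brown fat genes 12 rose and 1 fell with MDI (9 and 3 after quantile normalization), 13 rose with ROSI and 15 with TBT. Among all entries 20.1% rose and 18.3% fell with MDI, 16.5% rose with ROSI and 14.1% with TBT. With DEHP 0 passed limma's adjusted test and 4 had an unadjusted p under 0.05, as had 2148 of all 19231 entries. Fabp3, the heart type fatty acid binding protein, rose by 5.53 with ROSI and 4.54 with TBT, and by 0.46 with MDI, a difference that turned negative after quantile normalization. Pdk4, a kinase that shuts off pyruvate oxidation, rose by 1.62 with ROSI and 1.68 with TBT and was at -0.17 with MDI, and its difference between ROSI and MDI was 1.79. Cidea, a lipid droplet protein of brown fat, rose by 2.49 with MDI, 2.72 with ROSI and 1.78 with TBT, and Kcnk3, a potassium channel, by 2.46, 2.30 and 2.07. Myoglobin (Mb), the oxygen store of muscle, rose most with MDI (3.56), less with TBT (2.24) and least with ROSI (0.96), and its value with ROSI changed sign after quantile normalization. Ucp1, the uncoupling protein of brown fat, and Prdm16 were not analysed here.

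Of 18 regulators of oxidative metabolism 10 rose with MDI, 10 with ROSI and 7 with TBT. Called higher among all entries were 20.1%, 16.5% and 14.1% with these agents, and called lower 18.3%, 14.3% and 10.6%. Ppargc1a, the coactivator of mitochondrial genes, rose by 0.43, 1.08 and 0.66, and with BP by 0.83. Ppara, the fatty acid receptor of oxidative tissues, rose by 0.41, 1.38 and 0.89 and was higher with ROSI than with MDI by 0.97. Esrra, a receptor that acts with PGC-1, rose by 1.56, 1.65 and 1.07. Pparg rose by 2.54 with MDI, 1.15 with ROSI and 0.98 with TBT. Of 10 white fat enriched genes measured, 5 were lower with ROSI than with MDI and 1 was higher (5 and 0 after quantile normalization). Among all entries 10.8% were called lower and 9.47% higher. Resistin (Retn) was at -2.91 in this comparison. Of 10 other genes of muscle metabolism (enzymes, a nucleotide carrier, Fabp3 and Mb), 5 rose and 2 fell with MDI (4 and 4 after quantile normalization), 7 rose and 1 fell with ROSI and 8 rose with TBT. Of 11 markers of preadipocytes and fibroblasts 7 fell and 1 rose with MDI (7 and 0 after quantile normalization), and 9 fell with ROSI and 9 with TBT, among them Dlk1, by 0.47, 1.05 and 0.97. Of 9 macrophage markers 3 fell with MDI (18.3% of all entries did), 1 fell and 1 rose with ROSI (14.3% and 16.5%) and 1 fell with TBT (10.6%). After quantile normalization 2 of them fell and 1 rose with ROSI. Of 3 endothelial markers 2 fell with MDI and 1 with TBT.

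The pattern over the 10 group means was compared between genes with Pearson's r. These are descriptions, since all groups share the reference RNA and 3 groups, MDI, ROSI and TBT, set most of the range. Between the 6 genes r ran from 0.670 (Cox7a1 and Elovl3) to 0.974 (Cpt1b and Elovl3). Over the 7 groups other than MDI, ROSI and TBT, Cox7a1 and Cox8b had r = 0.970, Cox7a1 and Slc36a2 0.983, and Cpt1b and Elovl3 0.348. The most alike other genes were Rbpms (0.996), Pacc1 (0.995) and Ppp2r5a (0.991) for Cox7a1, and Tcn2 (0.992), Myo19 (0.989) and Ifi27l2a (0.985) for Cox8b. For Slc36a2 they were Trarg1 (0.996), which acts in the traffic of the glucose transporter GLUT4, and Etfa (0.994) and Etfdh (0.992), which pass electrons from fatty acid oxidation to the respiratory chain. For Cpt1b they were Atp9a (0.987), Pmm1 (0.974) and Gadd45g (0.974), for Elovl3 Olr1 (0.983), Osbpl11 (0.970) and Armc1 (0.970), and for Chchd10 Chst11 (0.963), Nipsnap1 (0.960) and Eci2 (0.959). Without MDI, ROSI and TBT these r were 0.872, 0.821 and 0.233 for Cpt1b, 0.519, 0.658 and 0.868 for Elovl3, and 0.820, 0.693 and 0.766 for Chchd10. The genes most like Cox7a1, Cox8b and Slc36a2 then had r between 0.956 (Ifi27l2a) and 0.994 (Etfdh). Olr1, a receptor of oxidised LDL, rose by 1.62 with ROSI, 0.29 with MDI and 0.22 with TBT.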

How the data were processed

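Per the labels' protocols, each array held sample RNA in Cy3 and the reference in Cy5. The submitters' processing notes name limma. Background correction and normalization are not given in the sources used here. The authors deposited a log ratio of reference over sample per probe, in a base that no source used here gives. Log2 was taken, because group differences matched the fold changes in 8 of the authors' deposited tables to within 5e-08, and the sign was turned. Probes of a gene were averaged after 26 control probes were left out, giving 19231 entries (14763 named genes), all of them tested. R 4.3.3 with limma 3.58.1 (lmFit, then eBayes) gave a mean per group from all 30 arrays. Degrees of freedom were 20 residual and 3.56 prior, p-values were adjusted over all entries (Benjamini-Hochberg), and the threshold was 0.05. The fit was tested on simulated data.

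The 6 genes and the 18 gene lists were chosen with earlier results of these data known. Genes were named from a pool. It held the 6 genes, their paralogues, up to 4 called genes with the smallest p and 2 with the largest p of each list, 7 regulators, and the 3 genes most like each of the 6. Not all genes of this pool are named in the text, so the named genes do not stand for their lists, whose counts are given. Lists share members, and the 6 genes are left out of all list counts. Comparisons between TBT, PP, BP, BPA and BBP were added after the values had been seen. Replicate numbers were checked for pairing in the 12 comparisons of the fit, after group means were removed. Among these, samples of the same number correlated above 0.1 in every pair only for PP and DMSO (0.127, 0.207 and 0.166). BP and DMSO samples also correlated best with their own number (0.039, 0.097 and 0.121). Pairing between TBT, PP, BP, BPA and BBP was not checked. Alternatives were median centring, quantile normalization, robust eBayes, a replicate block, only the compared groups, single probes, a filter on range and leaving out each replicate.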

Additional observations from a re-analysis of the deposited data

How the results depend on the processing

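The differences of the 6 genes kept their sign under median centring, the replicate block and a fit of only the compared groups. Quantile normalization kept the sign of 53 of 72. Where arrays had not overlapped, it turned Cox7a1 with BPA (-0.15), BBP (-0.37), BP (-0.27), EB (-0.0751) and PP (-0.0299), Cpt1b with BPA (-0.0287), BP (-0.22) and PP (-0.0573), Slc36a2 with BBP (-0.00442) and Chchd10 with BBP (-0.82). Where they had overlapped, it turned Elovl3 with BP (-0.78), BBP (-0.55), PP (-0.55) and BPA (-0.19), Cox8b with EB (-0.38), Chchd10 with DEHP (-0.0047), Cox7a1 between TBT and ROSI (0.17) and Elovl3 between TBT and MDI (-0.001), and put Cox8b with DEHP at 0. Leaving out DMSO replicate 3 turned the sign of Chchd10 with BP, and leaving out TBT replicate 3 that of Cox7a1 between TBT and ROSI, both comparisons with overlapping arrays. The first Cpt1b probe alone gave -0.0141 for BP, -0.0409 for EB and -0.0103 for DEHP. Without DMSO replicate 2, the difference of EB fell from 0.08 to 0.04 for Cpt1b and from 0.34 to 0.20 for Slc36a2. With DEHP, leaving out one array gave 0.13 to 0.36 for Cox7a1, 0.08 to 0.26 for Cox8b, 0.0011 to 0.07 for Cpt1b, -0.09 to 0.21 for Elovl3, 0.0096 to 0.29 for Slc36a2 and 0.04 to 0.16 for Chchd10, each lowest without DMSO replicate 2 (Chchd10 without DMSO replicate 1) and highest without DMSO replicate 3. Counts of called entries moved by over 1.5 times for the weakest agents. For BBP the count was 1778, against 1170 after quantile normalization and 1116 with only the compared groups, and leaving out one array gave 970 (without DMSO replicate 2) to 1923, with 1165 without BBP replicate 3. For DEHP it was 3, against 14 after quantile normalization, 16 with the replicate block and 0 with only the compared groups, where limma gave 1875 entries an unadjusted p under 0.05; leaving out one array gave 2 to 48 (5 without DEHP replicate 1, 7 without DMSO replicate 1, 48 without DMSO replicate 3). For EB it was 131, against 29 after quantile normalization and 0 with only the compared groups (1349 at an unadjusted p under 0.05), and 8 to 381 without one array (DMSO replicate 1 26, DMSO replicate 2 8, EB replicate 2 381, EB replicate 3 64). The cause was not tested. The replicate block changed no other count by over 1.5 times and left every difference of the 6 genes as it was. No dim probes could be filtered out, since array intensities were not part of the values used.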
